A study of Homo sapiens with 4 samples.

Results

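The signal-transducing SMADs and their partners were followed in HK-2 cells with and without TGF-β1. The set holds 10 genes chosen by symbol for their role in SMAD signalling: SMAD1, SMAD2, SMAD3, SMAD4, SMAD5, SMAD9, ZFYVE9, TRIM33, EP300 and CREBBP. All 10 were found among the 25609 genes of the deposited expression table. HK-2 (HK2 in the labels) is an immortalised human proximal tubule cell line, used with a WT genotype in every library. The data are 4 bulk RNA-seq libraries, 2 of control cells and 2 of cells labelled with TGFb1 treatment. The treatment text is the same for all 4 libraries and describes serum starvation for 24 h, TGF-β1 at 20 ng/mL for 24 h and 4-thiouridine at 100 μM over the last 20 h, so controls were told apart from treated cells by their title and treatment label. The 4-thiouridine, a nucleoside that marks newly made RNA, is described for controls and treated cells alike, and total RNA was sequenced. The labels do not say whether libraries of 1 group came from separate cultures or passages, so a p-value compares the groups with a library-to-library spread that could be technical. The series concerns miR-17 and miR-20a in renal epithelial fibrosis, and the comparison analysed here is TGF-β1 against control.

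TGF-β binds a pair of receptor kinases at the cell surface, and the activated receptor phosphorylates SMAD2 and SMAD3. BMP receptors phosphorylate SMAD1, SMAD5 and SMAD9 in the same way. Phosphorylated receptor SMADs bind SMAD4 and enter the nucleus, where they bind DNA with other transcription factors and recruit the acetyltransferases p300 (EP300) and CBP (CREBBP). Activation is a change in protein phosphorylation and location, which RNA levels do not measure. In kidney, SMAD3 is known for its part in the fibrotic response to TGF-β.

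SMAD3 RNA fell with TGF-β1, and no other gene of the set passed the test. Levels are in RPKM, which divides the reads of a gene by its exon length and by the library size, and 9 of the 10 genes reached the mean RPKM of 0.5 needed for testing. SMAD9 was below it. Of the 9 tested genes, 0 were higher and 1 was lower at an adjusted p under 0.05 by limma with Benjamini-Hochberg adjustment over all 16590 tested genes. Of all tested genes 9.12% were called in either direction, 1015 of them higher and 498 lower. The median log2 difference of the 9 genes was -0.09, against 0.03 for all tested genes. In 5 of the 9 genes both libraries of one group lay above both of the other, 1 of them higher and 4 lower with TGF-β1, while 54.1% of all tested genes had such an arrangement. With 2 libraries in each group the spread within a group rests on a single difference.

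**Figure D1:**
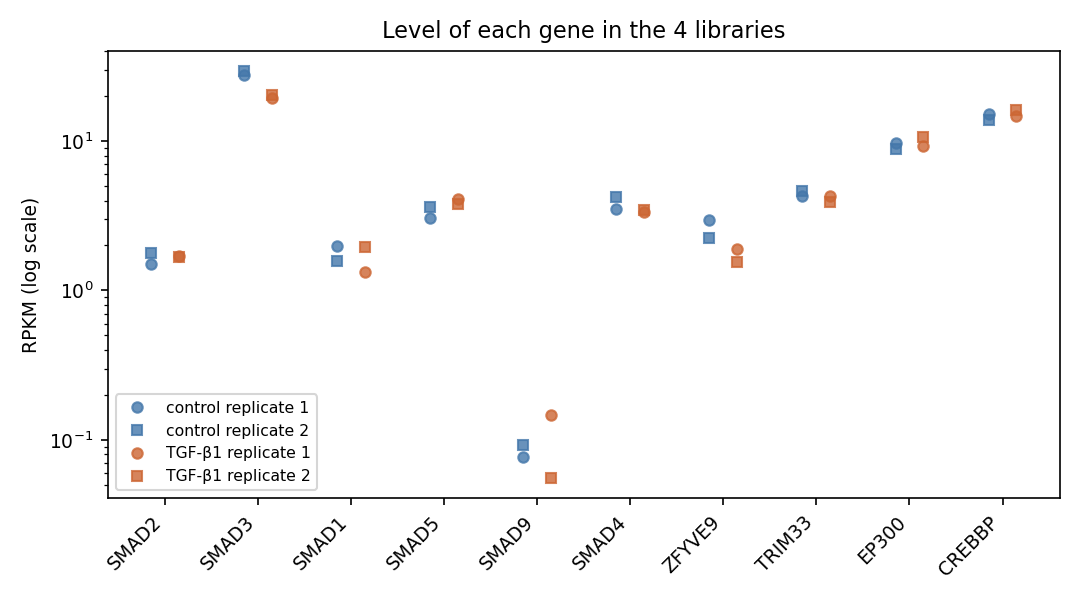
RPKM on a log axis for each gene in the 4 libraries, blue for control and orange for TGF-β1, with circles for replicate 1 and squares for replicate 2. SMAD3 is the highest gene in every library, its TGF-β1 points (19.4 and 20.4) lie under its control points (27.7 and 29.4), and SMAD9 lies near 0.1.

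SMAD3 transmits TGF-β and activin signals and, unlike the main form of SMAD2, binds DNA directly. Its level was 27.7 and 29.4 RPKM in the control libraries and 19.4 and 20.4 RPKM in the TGF-β1 libraries. The groups were separate, with a gap between them wider than the difference within either. The mean went from 28.5 ± 1.22 to 19.9 ± 0.732 RPKM (SD, n = 2 each), a level 1.44-fold lower with TGF-β1. The log2 difference was -0.51 ± 0.08 (SE), with a 95% interval from -0.71 to -0.31 and an adjusted p of 0.0227 (limma). The control libraries held 855 and 1259 SMAD3 reads, the treated ones 733 and 875, and the depth-scaled ratio was 0.694 with a 95% interval, for counting error alone, of 0.650 to 0.741. Of all tested genes, 10.9% had a lower log2 difference than SMAD3. The call was lost without the trend in the variance estimate (adjusted p = 0.115) and when 1 library was left out, with an adjusted p of 0.0583 without control replicate 2 and of 0.0950 and 0.0770 without the first and the second TGF-β1 library. The log2 difference stayed between -0.69 and -0.47 over the 15 alternative settings.

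The gene spans chr15:67063763-67195195 on the plus strand of hg38 (GENCODE 29), and RefSeq lists 5 transcription starts for it. The window from 250 bases before to 50 after the first of these starts, chr15:67065352-67065651 on GRCh38.p14, is shown because SMAD3 is the member whose RNA fell. Capitals mark CAGAC, the extended SMAD-binding element, searched on both strands (CAGAC or GTCTG).
SMAD3 first start: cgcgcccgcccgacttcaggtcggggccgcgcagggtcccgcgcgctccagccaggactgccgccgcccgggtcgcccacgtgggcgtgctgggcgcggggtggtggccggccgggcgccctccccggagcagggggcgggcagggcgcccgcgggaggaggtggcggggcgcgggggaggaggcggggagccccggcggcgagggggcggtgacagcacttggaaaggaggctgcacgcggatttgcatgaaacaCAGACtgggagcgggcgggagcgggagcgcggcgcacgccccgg
This window is 80.3% G or C and holds 1 CAGAC, just after the start. The GC-rich SMAD-binding word GGCGC (or GCGCC) occurs 8 times in it. At the first listed start of other genes it occurs 7 times in SMAD5, 6 in EP300 and 5 in SMAD2 and CREBBP. It occurs 3 times in SMAD4, ZFYVE9 and TRIM33, 2 in SMAD9 and 0 in SMAD1. CAGAC was found in 45.3% and GGCGC in 48.5% of the 34943 RefSeq promoter windows of the same length, so neither is rare. The fifth SMAD3 start has 4 CAGAC matches and no GGCGC. SMAD3 starts 2 and 3 hold neither word, and start 4 holds 1 of each. At the first listed start of the other 9 genes CAGAC was found in SMAD9 alone, with 1 match. Start 4 of SMAD1 also holds 1 CAGAC, with 7 GGCGC. The other later starts listed for SMAD1, SMAD2 and CREBBP hold no CAGAC. The word is therefore not particular to SMAD3. A match is a description of letters and was not tested as a binding site.

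SMAD2 is the other receptor SMAD of the TGF-β branch. Its level was 1.51 and 1.77 RPKM in controls and 1.70 and 1.68 RPKM with TGF-β1. The TGF-β1 values lay between the control values. The log2 difference was 0.04 with a 95% interval from -0.48 to 0.56 and an adjusted p of 0.934 (limma). The SMAD2 gene at chr18:47808957-47931146 on the minus strand has an exon model of 36366 bases, because one annotated transcript carries a very long 3′ end, and RPKM divides by that whole length. Per kilobase of its shorter full-coding transcript of 12075 bases, SMAD2 came to 4.93 on the RPKM scale in controls and 5.08 with TGF-β1. All reads of the exon model were divided by that length, so these values are upper bounds for that transcript. Its RPKM therefore cannot be set beside those of the other SMADs without regard to the length model.

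Against SMAD2, SMAD3 was 18.3 and 16.6 times as high in controls and 11.4 and 12.2 times as high with TGF-β1, as ratios of RPKM. The ratio was lower in both treated libraries than in either control. The log2 difference of the ratio was -0.57 with a p of 0.333 in a two-sided exact permutation test. That is the smallest p that 2 against 2 libraries allow, so the test could not have shown a difference. The ratio contains SMAD3 and describes its fall again. The change in this ratio does not depend on the length model, whereas its level does.

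The BMP-branch receptor SMADs were low beside SMAD3 on the RPKM scale, as SMAD2 and SMAD4 were. SMAD5 and SMAD1 did not pass the test, and SMAD9 was not tested. SMAD5, at chr5:136132845-136188747, had 3.04 and 3.60 RPKM in controls and 4.07 and 3.79 RPKM with TGF-β1. Both treated libraries lay above both controls. The log2 difference was 0.22 with a 95% interval from -0.19 to 0.62 and an adjusted p of 0.478 (limma). SMAD1, at chr4:145481194-145558079, had 1.97 and 1.56 RPKM in controls and 1.33 and 1.95 RPKM with TGF-β1. These values rest on 33 to 55 reads a library and overlapped, and the log2 difference was -0.09 with a 95% interval from -0.73 to 0.54 and an adjusted p of 0.863 (limma). A change in SMAD1 of the size seen in SMAD3, in either direction, lies within that interval. SMAD9, which codes for the third BMP-branch SMAD, was barely present. The control libraries held 1 and 2 of its reads and the treated ones 3 and 1, so its ratio of 1.22 had a counting interval from 0.206 to 8.31 and no difference was detectable at this depth.

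SMAD4 is the common partner that both branches need for their transcriptional complexes. Its level was 3.52 and 4.22 RPKM in controls and 3.35 and 3.44 RPKM with TGF-β1. Both treated libraries were lower, but the nearest control lay closer to them than to the other control. The log2 difference was -0.16 with a 95% interval from -0.57 to 0.25 and an adjusted p of 0.593 (limma). Of the 50-base words of SMAD4 transcripts, 5.84% also occur in an overlapping annotated gene on the same strand, AC091551.1, so part of its reads could be assigned to either or to neither. That share was 0% for SMAD3, 3.77% for ZFYVE9 and at most 1.14% for the other 7 genes.

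**Figure D2:**
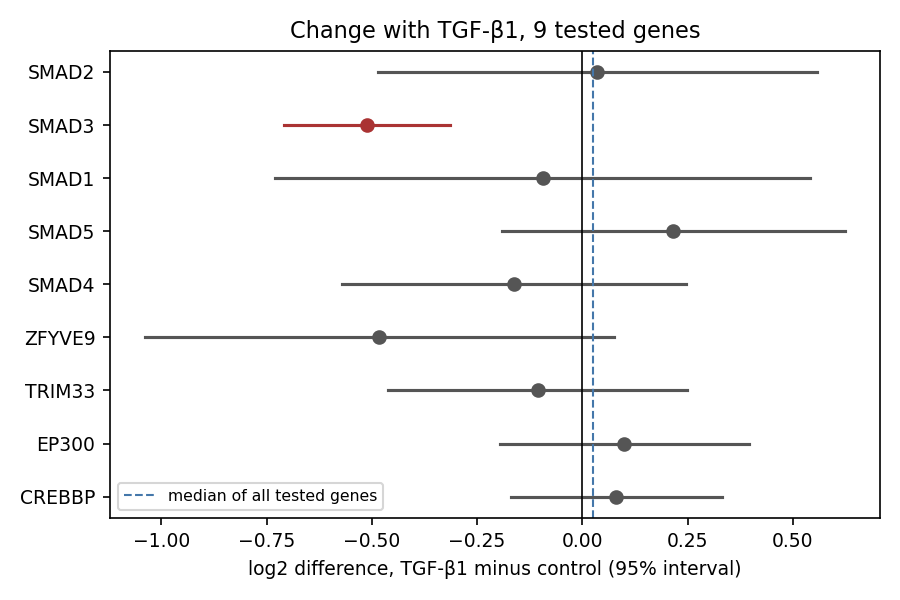
Log2 difference (TGF-β1 minus control) with its 95% interval for the 9 tested genes, red for the called gene and grey for the rest, with the median of all tested genes (0.03) dashed. The interval of SMAD3 (-0.71 to -0.31) lies below 0, that of ZFYVE9 reaches from -1.04 to 0.08, and the others cross 0.

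ZFYVE9 codes for SARA, an endosomal anchor that presents SMAD2 and SMAD3 to the activated receptor. Its level was 2.97 and 2.25 RPKM in controls and 1.88 and 1.55 RPKM with TGF-β1. Both treated libraries were lower, and the 2 controls differed by more than the gap between the groups. The mean was 2.61 ± 0.507 in controls and 1.72 ± 0.234 RPKM with TGF-β1 (SD, n = 2 each), a ratio of 0.658 that is further from 1 than the 0.697 of SMAD3. Its log2 difference of -0.48 had a 95% interval from -1.04 to 0.08 and an adjusted p of 0.260 (limma), and it was not called. It rests on 58 and 61 reads in the control libraries against 45 and 42 in the treated ones, with a depth-scaled ratio of 0.667 and a counting interval of 0.5002 to 0.887. Over the alternative settings the adjusted p ran from 0.0770 to 0.622, so no setting called it. Its exons share 144 bases with CC2D1B on the other strand, which had 62 to 95 reads a library, and the labels do not say if the counting used strand.

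TRIM33 (TIF1γ) binds phosphorylated SMAD2 and SMAD3 as a partner other than SMAD4, and is also known as a ubiquitin ligase that acts on SMAD4. Its level was 4.27 and 4.63 RPKM in controls and 4.26 and 3.94 RPKM with TGF-β1. TGF-β1 replicate 1 and control replicate 1 had almost the same level. The log2 difference was -0.11 with a 95% interval from -0.46 to 0.25 and an adjusted p of 0.702 (limma).

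The acetyltransferases EP300 and CREBBP, paralogous coactivators that acetylate histones at SMAD-bound genes, were the best measured of the genes that did not pass the test. EP300 had 9.68 and 8.84 RPKM in controls and 9.31 and 10.6 RPKM with TGF-β1. CREBBP had 15.2 and 13.9 RPKM in controls and 14.7 and 16.1 RPKM with TGF-β1. In both genes the groups overlapped, and in both the order of the 4 libraries was the same. The log2 difference of EP300 was 0.10 with a 95% interval from -0.20 to 0.40 and an adjusted p of 0.655 (limma). That of CREBBP was 0.08 with a 95% interval from -0.17 to 0.33 and an adjusted p of 0.672 (limma), the narrowest interval among the genes not called. A fall of the size estimated for SMAD3 lies outside both intervals. The ratio of CREBBP to EP300 was 1.57 in both controls and 1.58 and 1.52 with TGF-β1.

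SMAD3 made up most of the SMAD RNA on the RPKM scale. The 6 SMADs summed to 37.8 and 40.7 RPKM in controls and 29.96 and 31.3 RPKM with TGF-β1. SMAD3 was 73.2% and 72.3% of that sum in controls and 64.6% and 65.2% with TGF-β1. The sum of SMAD1, SMAD5 and SMAD9 was 5.09 and 5.26 RPKM in controls and 5.55 and 5.79 RPKM with TGF-β1. The TGF-β branch (SMAD2 plus SMAD3) thus stood at 5.74 and 5.93 times the BMP branch in controls and at 3.80 and 3.82 times with TGF-β1. The level of this ratio depends on the length model. For SMAD1 the exon model has 6058 bases and the full-coding transcripts 1658 to 2085. Counted as reads without division by length, SMAD3 was 64.4% and 62.5% of SMAD reads in the control libraries and 54.1% and 55.2% in the treated ones. EP300 and CREBBP together were 0.900 and 0.772 times SMAD3 in controls and 1.24 and 1.31 times with TGF-β1. These ratios all contain SMAD3 and describe its fall again, and they are given with no test.

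**Figure D3:**
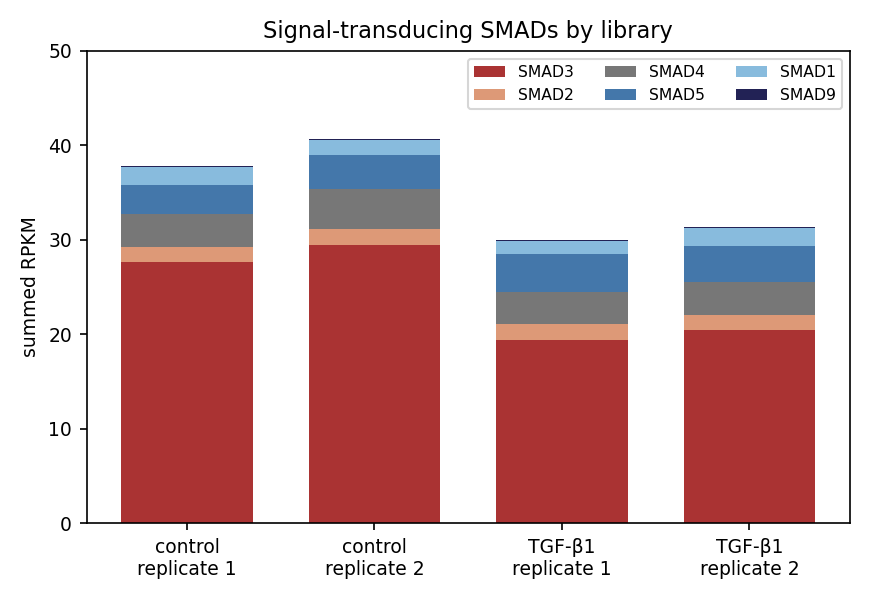
Stacked RPKM of the 6 SMADs in each library, from 0. The SMAD3 block is shorter in the TGF-β1 libraries, and the summed level goes from 37.8 and 40.7 to 29.96 and 31.3 RPKM.

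The order of levels in controls was SMAD3, CREBBP, EP300, TRIM33, SMAD4, SMAD5, ZFYVE9, SMAD1, SMAD2 and SMAD9, on the RPKM scale. SMAD4 and SMAD5 overlapped between libraries, as did SMAD1 and SMAD2. With TGF-β1 SMAD5 stood above SMAD4, TRIM33 and SMAD5 overlapped, and the libraries of ZFYVE9, SMAD2 and SMAD1 overlapped as neighbours. SMAD3, CREBBP and EP300 held the top of the order in both groups. SMAD3 was also the first of the 10 genes in controls per kilobase of its shortest full-coding transcript, with 41.6 on the RPKM scale against 20.8 for CREBBP and 12.1 for EP300. Among the lower SMADs the order changed with the length used. All reads of a gene were divided by each length, so the values for shorter lengths are upper bounds. Per kilobase of the shortest full-coding transcript SMAD5 stood at 9.03, SMAD1 at 6.38, SMAD4 at 5.96 and SMAD2 at 4.93 on that scale, whereas per kilobase of coding sequence SMAD2 came next after SMAD3, with 42.5 against 204.

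**Figure D4:**
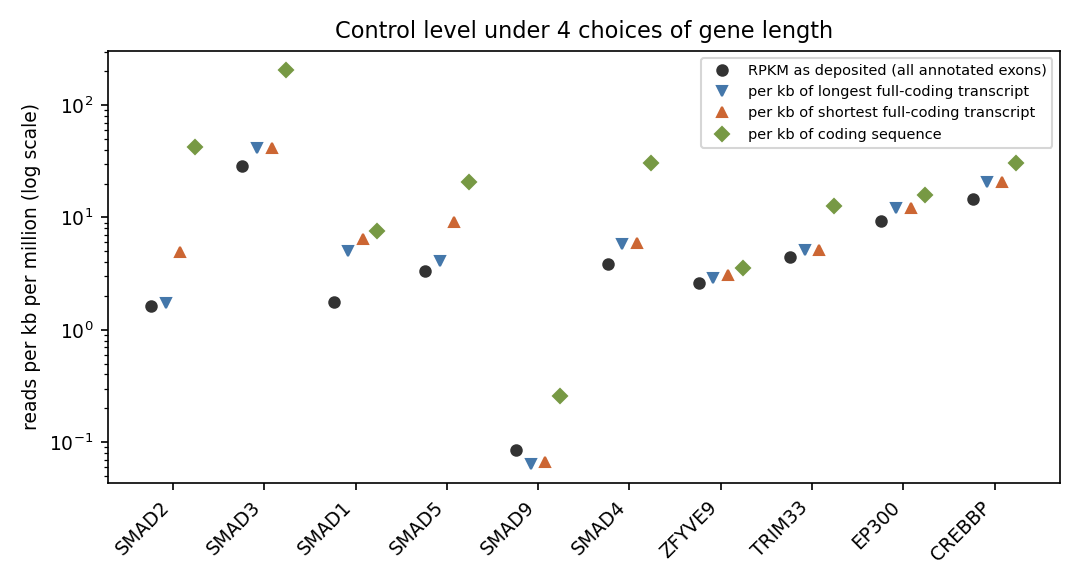
Mean control level of each gene, as depth-scaled reads per kilobase on a log axis, when the reads are divided by all annotated exons (RPKM), by the longest or shortest transcript with the full coding sequence, or by the coding sequence. SMAD3 is highest under each choice, and SMAD2 moves most, from 1.64 to 42.5.

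The study's miRNAs miR-17 and miR-20a share a seed, and their mature sequences (RefSeq, GRCh38.p14) are shown with the seed, bases 2 to 8, in capitals.
hsa-miR-17-5p: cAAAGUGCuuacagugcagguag
hsa-miR-20a-5p: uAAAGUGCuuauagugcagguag
The matching word GCACTTT was searched in the longest 3′ UTR of each gene (GENCODE 29 transcripts, hg38). It occurred 9 times, in SMAD2 (4), SMAD5 (2), SMAD9 (1), SMAD4 (1) and ZFYVE9 (1), and it was not found in SMAD3, SMAD1, TRIM33, EP300 or CREBBP. Of the 11529 tested genes with an annotated 3′ UTR, 24.8% held a match, at 0.184 matches per kb, and their median UTR was 1307 bases long. The SMAD2 UTR of 32870 bases held 0.122 matches per kb and the SMAD5 UTR of 5254 bases 0.381. The 4659-base UTR of SMAD3 held none. Neither did those of TRIM33 (4871 bases), CREBBP (2664 bases) and EP300 (1123 bases), which did not pass the test. The SMAD1 UTR that was searched is only 145 bases long, so the lack of a match there says little. The sites of SMAD4 and ZFYVE9 and the first of SMAD5 are shown with their surroundings, with GCACTTT in capitals and the hg38 position of each 30-base stretch.
SMAD4, chr18:51079808-51079837, plus strand: attttttttttcttttGCACTTTtgagtcc
ZFYVE9, chr1:52346270-52346299, plus strand: catacccaaatcatttGCACTTTaaaactg
SMAD5, chr5:136178312-136178341, plus strand: attaatcttttattttGCACTTTtatgggt
In 6 of the 9 matches, spread over SMAD2, SMAD5 and SMAD9 and including all 4 of SMAD2, the bases that follow are the same, so the matches are not independent of each other. The SMAD2 sites begin at base 13955 of the UTR or later and are absent from its shorter UTR of 10276 bases, and both SMAD5 sites are absent from its shorter UTR of 525 bases. The sites of SMAD4, SMAD9 and ZFYVE9 lie in every full-coding transcript's UTR. SMAD2, SMAD5, SMAD4 and ZFYVE9 did not pass the test with TGF-β1, SMAD9 was not tested, and binding of the miRNAs was not measured in these libraries.

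Some inhibitors of SMAD signalling rose with TGF-β1. Of 11 tested inhibitors and corepressors, 5 were higher and 0 lower, where 9.12% of all tested genes were called, with a median log2 difference of 0.39. The list was chosen with earlier results of these data known, so this count is not a test of the inhibitors as a group. PMEPA1, which keeps receptor SMADs from the receptor, went from 34.6 and 36.7 to 330 and 328 RPKM, a log2 difference of 3.19 (adjusted p = 0.000268, limma). SMAD7, the inhibitory SMAD that recruits ubiquitin ligases to the receptor, went from 8.35 and 8.96 to 40.0 and 35.2 RPKM, a log2 difference of 2.05. SKIL (SnoN), a corepressor of SMAD complexes, and BAMBI, a pseudoreceptor, rose by 1.16 and 1.88 on the log2 scale. HDAC1, a histone deacetylase of corepressor complexes and the list's median gene, was 0.39 higher with an adjusted p of 0.0496 (limma), and its call was lost in 12 of 15 alternatives. Its log2 difference fell to 0.21 when libraries were scaled by recovered reads and to 0.20 with quantile normalisation.

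In the lists of receptors, of SMAD-modifying enzymes and of phosphatases and anchors, 1 to 3 genes each were called, at a background of 9.12%, so these counts are given as description. Of 9 tested receptors and coreceptors, 2 were higher and 1 lower, with a median log2 difference of 0.10. The type II receptor TGFBR2 was 12.2 and 11.6 RPKM in controls and 7.34 and 7.65 RPKM with TGF-β1, a log2 difference of -0.63. The BMP type II receptor BMPR2 rose by 1.18 on the log2 scale and kept its call in all 15 alternatives. TGFBR1, the type I partner of TGFBR2, was 0.86 higher with an adjusted p of 0.0458 (limma), and its call was lost in 9 of 15 alternatives, those without each of the 4 libraries included (adjusted p 0.0835 to 0.213). Of 14 ubiquitin and SUMO enzymes that act on SMADs, 1 was higher and 1 lower. SMURF1, a ligase for BMP-branch SMADs and receptors, had a log2 difference of 0.99. NEDD4L, a ligase for phosphorylated SMAD2 and SMAD3, was 5.55 and 6.15 RPKM in controls and 2.42 and 2.78 RPKM with TGF-β1, a log2 difference of -1.04. Of 17 phosphatases, anchors and nuclear transport factors, 0 were higher and TGFBRAP1, a receptor-binding chaperone of SMAD4, was lower (log2 difference -0.75). The calls of TGFBR2, NEDD4L and TGFBRAP1 were each lost in 5 of 15 alternatives, while SMURF1 kept its call in all 15.

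Nuclear partners that were not among the 10 genes were called in both directions, again beside a background of 9.12%. Of 22 tested DNA-binding partners, 2 were higher and 4 lower, with a median log2 difference of 0.05. JUNB, an AP-1 subunit, went from 21.6 and 21.7 to 288 and 299 RPKM, a log2 difference of 3.73, while the AP-1 subunits JUN (-0.46), FOSL1 (-0.52) and JUND (-0.47) fell on the log2 scale. RUNX1 (0.81) was the other higher gene, with a call lost in 10 of 15 alternatives, and TFDP1 (-0.35) the other lower one. The call of TFDP1 was lost in 5 of the 15, that of JUND in 4, FOSL1 in 3, JUN in 2 and JUNB in 0. Of 15 other coactivators and factors that bind CBP or p300, 2 were higher and 1 lower, with a median log2 difference of 0.13. CITED2, which competes with transcription factors for a domain of CBP and p300, was 110 and 128 RPKM in controls and 24.0 and 21.7 RPKM with TGF-β1, a log2 difference of -2.36 (adjusted p = 0.00132, limma). MED15, a Mediator subunit that SMADs bind, rose by 0.69 on the log2 scale. The acetyltransferase KAT5 was 0.39 higher with an adjusted p of 0.0496 (limma), a call lost in 12 of 15 alternatives. CITED2 thus fell beside EP300 and CREBBP, whose intervals both include 0.

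**Figure D5:**
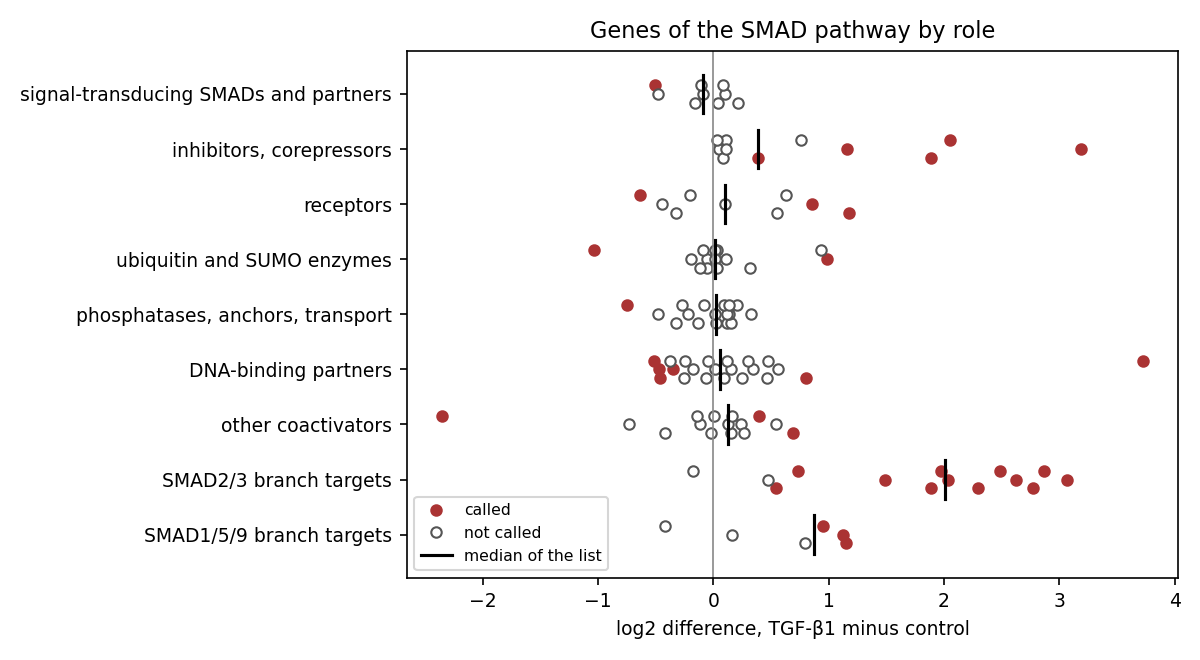
Log2 difference (TGF-β1 minus control) of the tested genes by role, filled where called and open where not, with a black bar at each list's median. The signal-transducing genes lie within about 0.6 of 0, while the listed SMAD2/3 target genes have a median of 2.01.

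Most listed target genes of the SMAD2/3 branch rose. Of 14 tested, 12 were higher and 0 lower, against 9.12% of all tested genes called. The median log2 difference was 2.01, and it was the same with LEFTY2, at 0 reads in controls, set at its lower bound. This list and the next were chosen with earlier results of these data known, so their counts are not a test of either branch. IL11 (2.87), SNAI1 (2.77) and TGFBI (2.30) rose on the log2 scale, and CCN2 (0.47, adjusted p = 0.125, limma) and CDKN1A (-0.18, adjusted p = 0.359, limma) did not pass. Among the 12, the call of SNAI2 was lost in 11 of 15 alternatives, that of PTHLH in 4 and that of FN1 in 2. Of 10 listed target genes of the SMAD1/5/9 branch, 6 were tested, 3 were higher and 0 lower, with a median log2 difference of 0.87. These were ID1 (1.15), ID3 (1.13) and GREM1 (0.95), with calls lost in 4, 2 and 5 of 15 alternatives. ID2, an inhibitor of helix-loop-helix factors like ID1, had a log2 difference of -0.42 with an adjusted p of 0.260 (limma).

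From the RPKM values 3336692 and 4801657 reads were recovered for the control libraries and 4638787 and 5451702 for the treated ones. Markers of a tubular epithelium were present in part. The keratins KRT8 and KRT18 and the renal factor PAX8 were well above 0, while CUBN, SLC34A1, AQP1 and ANPEP, 4 markers of the differentiated proximal tubule, were each at or under 0.385 RPKM in every library. GGT1, a brush-border enzyme, was at 19.6 and 20.4 RPKM in controls and 18.9 and 16.8 RPKM with TGF-β1, and the cadherin CDH6 at 11.9 to 23.2 RPKM over the 4 libraries. With TGF-β1 KRT8 (1.19) and KRT18 (0.43) rose and PAX8 (-1.50) fell on the log2 scale. Beside the fall of SMAD3, the summed RPKM of the 10 tubular and epithelial markers in the table was 259 and 273 in controls. It was 363 and 398 with TGF-β1, and its part in the SMAD3 result was not tested. KRT8 and KRT18 make up most of this sum, so its rise is not one of the markers as a group. Of 6 tested markers 2 were called higher and 1 lower, beside 9.12% of all tested genes. CDH1, an epithelial cadherin, was 1.22 and 0.947 RPKM in controls and 0.604 and 0.499 RPKM with TGF-β1, and was not called. Of the markers of other cell types found in the table, the endothelial CDH5 and VWF and the nephron markers SLC12A3 and NPHS1 had 0 reads in all 4 libraries. The leukocyte marker CD68 was at or under 0.471 RPKM. Of 3 fibroblast and pericyte markers in the table DCN was at or under 0.103 RPKM and PDGFRB at or under 0.223 RPKM, while LUM was 12.1 and 12.9 RPKM in controls and 8.76 and 6.74 RPKM with TGF-β1 (adjusted p = 0.0567, limma). In bulk RNA a lower level per cell and fewer cells with the RNA cannot be told apart.

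The scaling behind RPKM touches each of these small differences. The library sizes that the RPKM values imply were 1.02 and 0.979 times the recovered reads for the control libraries and 0.896 and 0.864 times for the treated ones. Scaling by the recovered reads shifted the median log2 difference of all genes by -0.15, and took the share of higher calls from 67.1% to 42.6%. Relative to the median gene, SMAD3 was at -0.54 in the main scaling and at -0.56 after scaling by recovered reads. Relative to that median SMAD3 ran from -0.61 to -0.50 over all settings and ZFYVE9 from -0.70 to -0.35, while SMAD5 ran from 0.08 to 0.28. SMAD4 ran from -0.31 to -0.09 and TRIM33 from -0.19 to -0.09. For EP300, CREBBP, SMAD2 and SMAD1 the range included 0.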

How the data were processed

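The data were total RNA libraries from HK-2 cells, made with a directional kit per the labels. The authors deposited 1 table of RPKM values. Per the submitters' processing notes, the tools were STAR 2.7.1a, bcl2fastq 2.20.0.422 and DESeq2, with the build hg38 and no role stated. Per the deposited values, each RPKM equals whole reads plus 0.5, divided by exon length and a library size. Whole reads (within 0.01) were recovered for 25498 of 25609 genes (99.6%), all of the 23853 with the same GENCODE 29 version included. Symbols were matched for 25312. limma 3.58.1 (R 4.3.3) was fitted to log2(RPKM + 0.5) with a variance trend over the 16590 genes whose mean RPKM reached 0.5. Called means an adjusted p under 0.05 (Benjamini-Hochberg). Fold changes on this scale understate low genes. Intervals on reads cover counting error only. The fit was tested on simulated data.

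The genes named are the 10 members, up to 4 called genes per pathway list by smallest p, members that complete a count of 5 or fewer, and CITED2, PMEPA1 and SMAD7. Some items that this rule or the sequence search takes in are not reported here. Members and lists were chosen with earlier results of these data known. Alternatives were other pseudocounts, filters, variance models and scalings, a replicate block, voom on recovered reads and each library left out. Protein sequences were not analysed here.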

Additional observations from a re-analysis of the deposited data

How the results depend on the processing

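SMAD3 kept its direction in all 15 alternatives and its call in 11. The count of called members was 0 without the variance trend and 0 to 1 with a library left out. Pathway-list calls numbered 35, with 17 without the variance trend, 57 with voom and 19 to 27 with a library left out. Of all tested genes 1513 were called, 977 with no filter, 424 without the trend, 3364 with voom and 574 to 1138 with a library left out. Where a group was left with 1 library, that library was assumed to vary like the other group's.

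Small differences changed sign. SMAD2 was -0.10 scaled by recovered reads, -0.011 with upper-quartile scaling and -0.051 to 0.12 with a library left out, negative without control replicate 1. SMAD1 ran from -0.30 to 0.12 with a library left out, positive without replicate 1 of either group. Scaled by recovered reads EP300 was -0.072 and CREBBP -0.094, and CREBBP was -0.012 after quantile normalisation. The cause was not tested. Quantile normalisation gave 50.4% higher calls.

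The same-numbered libraries' deviations correlated at 0.03 over 16590 genes. From 2 libraries in each group this value cannot tell whether same-numbered libraries shared a culture or day. With the replicate block 1 member (SMAD3, adjusted p = 0.0305, limma), 32 pathway-list genes and 1344 genes in all were called, and HDAC1, KAT5, TGFBR1, RUNX1 and SNAI2 lost their calls. Depth limits SMAD9, at 1 to 3 reads, and SMAD1, at 33 to 55.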
